A study of Mus musculus with 20 samples.

Results

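The 9 genes described here, Isg15, Ifit1, Ifit2, Ifit3, Irf7, Rsad2, Usp18, Ifih1 and Oasl2, are interferon-stimulated genes, chosen by symbol out of 37561 genes shared by all deposited tables. They were followed in mouse ESD3 embryonic stem cells of strain 129s2/SvPas, which were kept on primary mouse embryo fibroblast feeders and differentiated toward dopaminergic neurons as spherical neural masses. The control group was transduced with a retroviral vector carrying a short hairpin RNA (shRNA) against luciferase, and the HPRT knockdown group with one carrying an shRNA against HPRT, the purine salvage enzyme; the study's methods describe the vectors as lentiviral, the HPRT hairpin as made against the human gene, and both lines as selected with puromycin. Sampling for RNA-seq was daily up to day 4, starting on day 0, and on every other day thereafter until day 14. There was 1 library per line and day, 10 per line and 20 in all, each from pooled RNA. Every group therefore carried a vector and a hairpin. No line without a hairpin was analysed here, and whether a line was 1 clone is not given in the sources used here. A response common to both lines leaves no trace in a ratio between them, so the comparison asks only whether the lines differed in the activity of these genes.

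Type I interferons are secreted when a cell senses foreign nucleic acid. Double-stranded RNA, the form a hairpin takes, can be sensed by Tlr3 in endosomes, by Ddx58 (RIG-I) and Ifih1 (MDA5) in the cytoplasm and by the kinase Eif2ak2 (PKR). The adaptors Mavs and Ticam1 pass the signal to Irf3 and Irf7, which switch on Ifnb1 and other interferon genes. Secreted interferon binds the receptor chains Ifnar1 and Ifnar2, and the kinases Jak1 and Tyk2 then activate transcription factors, Stat2 and Irf9 among them, that bind the interferon-stimulated response element in the promoters of its targets. Of the targets described here, Isg15 is a ubiquitin-like protein that is attached to other proteins, and Usp18 removes it again and restrains receptor signaling. Ifit1, Ifit2 and Ifit3 are tetratricopeptide proteins that act on foreign RNA and on translation, Rsad2 (viperin) is an antiviral enzyme, and Oasl2 belongs to the oligoadenylate synthetase family. Pluripotent stem cells are known for a weak interferon response that is gained as they differentiate.

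The response element is the sequence through which interferon acts on its targets, so promoters were searched for its core, GAAANNGAAA, on both strands. The windows ran from 250 bases before to 50 bases after the transcription start, with sequences from RefSeq on build GRCm38.p6, and 8 of the 9 genes had an entry (not Usp18). A core lay before the start in 4 of the 8, against 3.46% of 27025 genes with such windows. The stretches of 30 bases that hold them are shown 5′ to 3′ on the strand of the gene, with each core in capitals (as its reverse complement where it lies on the other strand).
Isg15, chr4:156200871-156200900, minus strand: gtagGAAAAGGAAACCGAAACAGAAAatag
Rsad2, chr12:26456553-26456582, minus strand: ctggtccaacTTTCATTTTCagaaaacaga
Ifit3, chr19:34583363-34583392, plus strand: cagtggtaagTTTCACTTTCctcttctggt
Ifit1, chr19:34640785-34640814, plus strand: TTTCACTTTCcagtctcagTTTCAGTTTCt
The Isg15 stretch held 3 overlapping cores and the Ifit1 stretch 2, and Ifit3 had a further core closer to its start. In Ifih1 the letters occurred once, after the start. They did not occur in the windows of Ifit2, Irf7 and Oasl2, which says only that these letters are not in these windows.

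As a check of the labels, Hprt itself (chromosome X of NCBIM37, 50341314 to 50374836, Gene ID 15452) was below the control on all 10 days, with a mean same-day log2 ratio (HPRT knockdown minus control) of -4.00 ± 0.89 (SD, n = 9 days), or 6.24% of the control. Means and standard deviations here and below cover 9 days, since day 6 was kept out of tests; the authors had also omitted that day from their pathway tests, calling it discrepant. Across the genes tested, the ratios of day 6 had a Pearson r of 0.362 with the mean ratio of the other days and those of day 0 one of 0.366, where the other 8 days had 0.634 to 0.86. Days stand in for repeats, because there was no replicate within a day, so p-values measure whether a difference kept its direction through 1 course of each line. The deposited tables hold log2 ratios within pairs of libraries. The reads behind the low genes could be recovered from them, and size factors of the libraries relative to their median ran from 0.823 to 1.60. A normalized read is a read count divided by that factor. Total read numbers were not used here, so levels are comparable among these libraries but are not shares of a library. Genes entered the tests if their log2 normalized count was typically 4 or more, and 13624 did. In this comparison of lines many genes differed: by limma with Benjamini-Hochberg adjustment 52.5% of them passed 0.05, with 26.2% higher and 26.3% lower in the knockdown.

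Apart from Ifit2, the genes were expressed at low levels in both lines. Ifit2 (Gene ID 15958, chromosome 19, 34625184 to 34650909, plus strand, 4 exon blocks) was the highest per exon length, with a median of 56.6 normalized reads per kilobase of exon over the 20 libraries (30.7 to 180.0). Its lowest library stood above the highest library of every other member. Next came Ifit3 at a median of 9.21 normalized reads per kilobase (2.75 to 24.3), Usp18 at 8.54, Isg15 at 7.91, Ifih1 at 6.03, Rsad2 at 5.12, Oasl2 at 4.52 and Ifit1 at 3.52. Irf7 was the lowest at 1.24 (0.279 to 10.2). Every pair of neighbors in this order below Ifit2 had overlapping ranges. Only Ifit2, Rsad2, Ifih1 and Oasl2 passed the level filter, while all 9 reached 2 on that scale. In number of reads, Irf7 had under 10 in 17 of 20 libraries, Isg15 in 14, Ifit1 in 9 and Usp18 in 8, so single-day ratios of these 4 genes carry wide counting intervals.

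**Figure D1:**
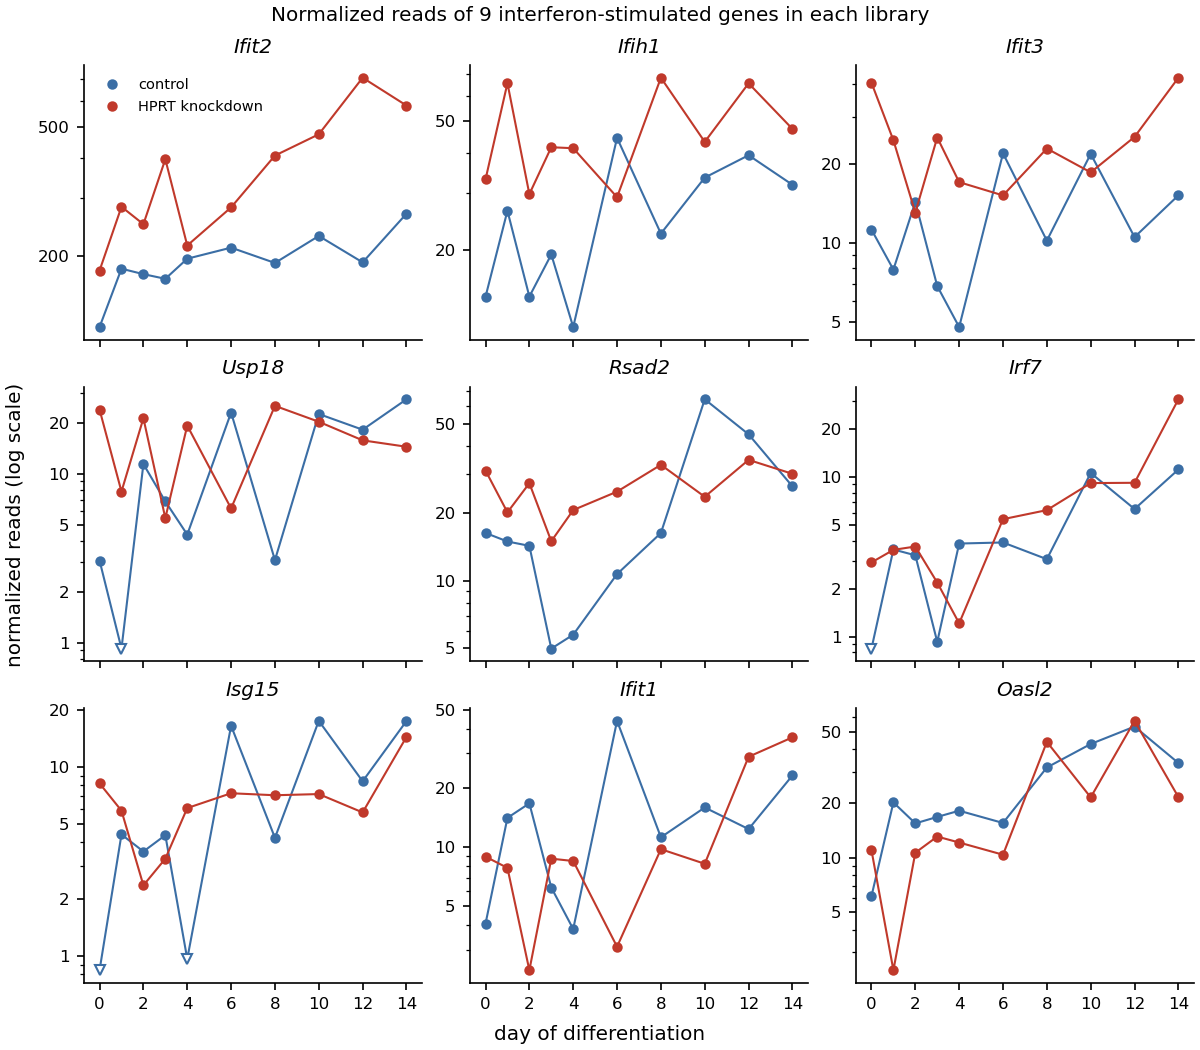
Normalized reads of the 9 genes (y axis, log scale) by day of differentiation (x axis) in the control line (blue) and the HPRT knockdown line (red), 1 library per point; open triangles are upper bounds for libraries at or under 1 normalized count. Ifit2 rose to 707 normalized reads in the knockdown on day 12, while its control libraries stayed between 120.4 and 269.

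The lines differed in 2 of the 4 genes that passed the filter. Ifit2 and Ifih1 were higher in the knockdown, by 1.89-fold and 2.13-fold, and Rsad2 and Oasl2 did not pass the test. None of the 4 was called lower. A count of 2 of 4 stands beside the 26.2% of all genes that were called higher, and with so few genes it says little about the group. With the filter lowered to a typical log2 count of 2, an alternative chosen after the data were seen, all 9 could be tested and 3 were called higher and none lower. The backgrounds there were 24.2% higher and 25.3% lower among 15417 genes, so 3 of 9 was near the share of genes in general.

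Ifit2 was higher in the knockdown on every day. Its normalized reads had a lowest value of 120.4, a median of 190.2 and a highest of 269 in the control libraries, and 179.8, 339.6 and 707 in the knockdown libraries, so the ranges of the lines overlapped although each day's pair was ordered the same way. In the order of the days the same-day log2 ratios were 0.59, 0.61, 0.52, 1.22 and 0.14 up to day 4, then 0.39 (day 6), 1.12, 1.05, 1.88 and 1.11. The smallest difference, on day 4, had a 95% counting interval (exact Clopper-Pearson on the reads of the 2 libraries) of -0.16 to 0.44, while the interval on day 12 was 1.67 to 2.09. The mean was 0.92 ± 0.51 (SD, n = 9 days; SE 0.16), with a limma adjusted p of 0.00115 and an exact sign-flip permutation p of 0.00390625, the smallest that 9 days allow. Intervals cover counting error only.

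Ifih1 (Gene ID 71586, chromosome 2, 62433850 to 62484312, minus strand, 16 exon blocks), a sensor of long double-stranded RNA that is itself induced by interferon, was higher in the knockdown on all 9 days tested and lower on day 6. The control libraries held 11.5 normalized reads at the lowest, 24.4 at the median and 44.5 at the highest (day 6), and the knockdown libraries 29.1 (also day 6), 42.4 and 68.3. Ratios ran 1.22, 1.29, 1.07, 1.10 and 1.85 up to day 4, then -0.64 (day 6), and 1.62, 0.37, 0.73 and 0.58 from day 8 to day 14. Without day 6 the ranges of the lines still overlapped, since the control reached 39.3 on day 12 and the knockdown fell to 29.8 on day 2. The mean ratio was 1.09 ± 0.48 (SD, n = 9 days; SE 0.15), with a limma adjusted p of 0.000344 and an exact sign-flip permutation p of 0.00390625.

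Ifit3 (Gene ID 15959, chromosome 19, 34658021 to 34663221, plus strand) stood higher in the knockdown on 7 of 9 days. Normalized reads were 4.79 at the lowest, 10.9 at the median and 21.9 at the highest in the control, against 13.0, 23.7 and 42.3 in the knockdown. In day order its ratios were 1.87, 1.61, -0.13, 1.87 and 1.83 up to day 4, then -0.56 (day 6), 1.18, -0.23, 1.26 and 1.49, so the negative values were those of days 2, 6 and 10. The mean of 1.19 ± 0.82 (SD, n = 9 days), a 2.29-fold difference, had an exact sign-flip permutation p of 0.0156, and limma gave an adjusted p of 0.00383 at the lower filter. Its reads are uncertain in origin, because 52.0% of the 49-base stretches of its transcripts also occur in the neighboring paralog I830012O16Rik. For Ifit1 the share was 7.25%, with 2010002M12Rik, and for the other 7 genes it was 0%.

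Usp18 (Gene ID 24110, chromosome 6, 121195924 to 121220934, plus strand) had a mean close to that of Ifit3 and a wider spread. Its ratio lay between 2.15 and 3.07 on 4 days (0, 1, 4 and 8) and between -0.93 and 0.91 on the other 5 days tested. On day 6 it was -1.91, with 23.03 normalized reads in the control and 6.24 in the knockdown. The mean was 1.17 ± 1.65 (SD, n = 9 days), higher on 5 of 9 days, with an exact sign-flip permutation p of 0.0938. The mean depended on which days counted as low. Without the days that the rounding step of the tables puts at a low level (0, 1 and 8) it was 0.24 over 6 days. Over the 7 days on which recovered reads put the larger library at 16 or more normalized reads, a choice made after the data were seen, it was 1.11. On days 0, 2, 4 and 8 only the knockdown reached that level, and on days 12 and 14 only the control. The control library of day 1 was at or under 1 normalized count, so that day's ratio is a lower bound, as are those of Isg15 on days 0 and 4 and of Irf7 on day 0.

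Rsad2 (Gene ID 58185, chromosome 12, 27127618 to 27141317, minus strand) was higher in the knockdown from day 0 through day 8, lower on days 10 and 12, and close to the control on day 14. Its control libraries stood between 4.99 and 16.3 normalized reads up to day 8 and at 64.3, 44.9 and 26.3 over the last 3 days sampled. The knockdown libraries stayed between 15 and 34.5. Ratios in day order were 0.94, 0.41, 0.94, 1.59, 1.85, 1.19 and 1.03 up to day 8, and then -1.44, -0.38 and 0.19. The mean of 0.57 ± 1.02 (SD, n = 9 days) did not pass (limma adjusted p 0.144). Without day 10 it was 0.82 and passed, with a limma adjusted p of 0.018, so the call rests on that pair of libraries.

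The remaining 4 genes gave no difference beyond the spread over days. Irf7 (Gene ID 54123, chromosome 7, 148448605 to 148452380), the interferon regulatory factor, had a mean ratio of 0.49 ± 1.06 (SD, n = 9 days; exact sign-flip permutation p 0.215), and by median it held 3.68 normalized reads in the control and 4.56 in the knockdown. Without day 4, a pair with 4 reads in the control and 1 in the knockdown, its mean was 0.76 with an exact permutation p of 0.0469. Isg15 (Gene ID 100038882, chromosome 4, 155573533 to 155574927) had a mean of 0.43 ± 1.53 (exact permutation p 0.449, n = 9 days), with its highest ratios on days 0 and 4, when the control was at or under 1 normalized count. On 2 of the days tested, 10 and 14, its larger library held 16 or more normalized reads. Each time only the control reached that level (17.57 and 17.54, against 7.20 and 14.45 in the knockdown). The mean of -0.78 over these 2 days has its sign set by that choice of days. Ifit1 (Gene ID 15957, chromosome 19, 34715361 to 34724499) averaged -0.017 ± 1.34 (exact permutation p 0.984, n = 9 days) and ran from -2.81 on day 2 to 1.21 on day 12. Oasl2 (Gene ID 23962, chromosome 5, 115346943 to 115362243) had negative ratios on 6 of 9 days, with a mean of -0.53 ± 1.13 (limma adjusted p 0.218, exact permutation p 0.18, n = 9 days). Its lowest ratio, -3.11 on day 1, came from 23 reads in the control and 2.43 in the knockdown. For Irf7, 1 day reached 16 normalized reads, day 14 with its ratio of 1.47, and only in the knockdown (30.7, against 11.2 in the control). The sign of that ratio is likewise set by the choice of day. Over all 9 genes 3 had an exact p under 0.05, each higher in the knockdown, where 26.5% of genes in general did.

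**Figure D2:**
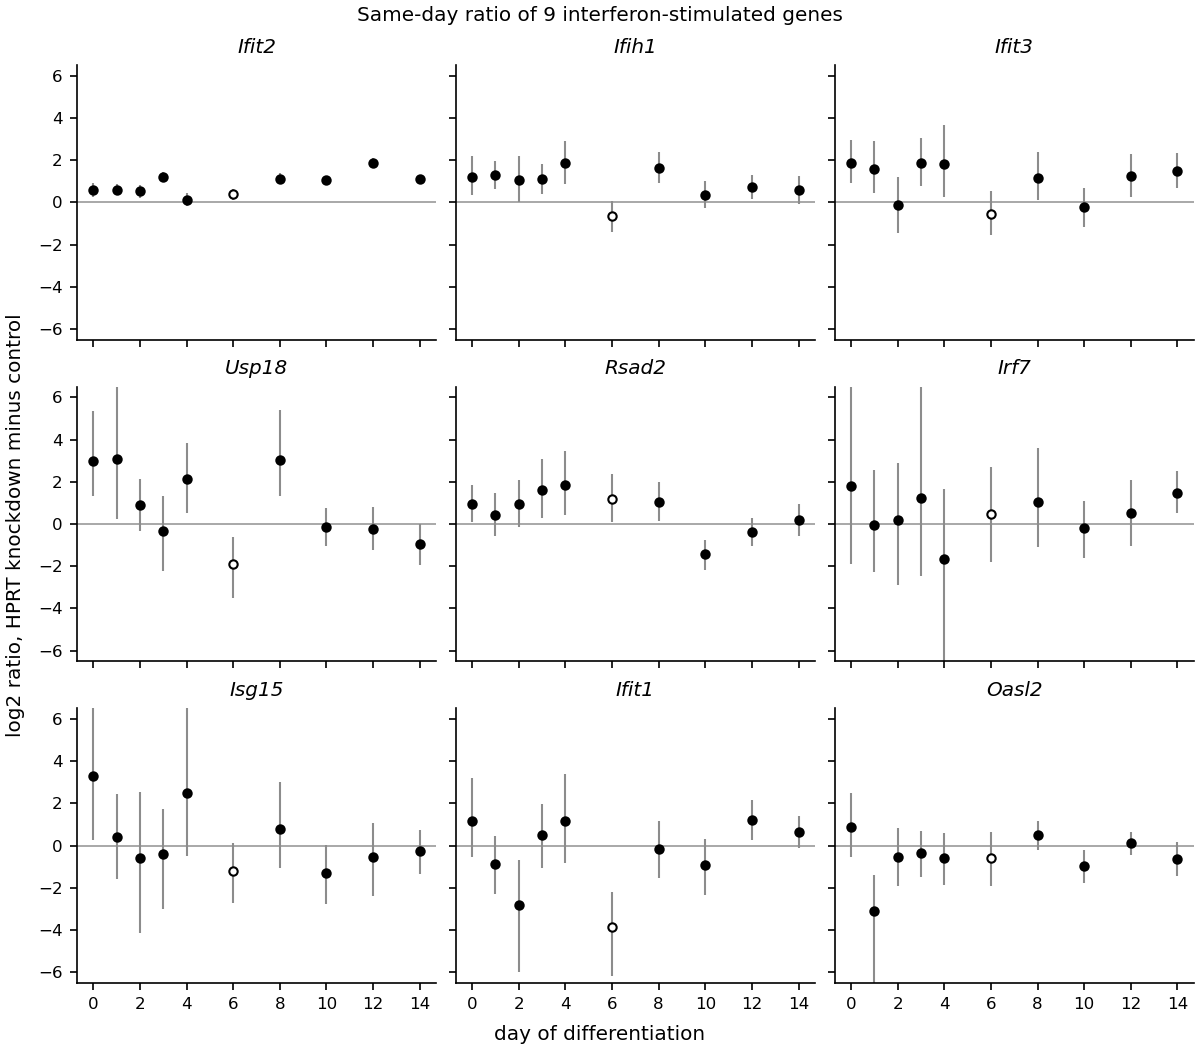
Same-day log2 ratio of each gene, HPRT knockdown minus control (y axis), by day of differentiation (x axis). Points are pairs of libraries, the open point is day 6, and vertical lines are 95% counting intervals, which end at the edge of the panel where they run past it; Ifit2 lies above 0 on all 10 days, and Ifih1 on all but day 6.

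Read day by day, the members were most alike in direction on day 0, the start of the course. All 9 were higher in the knockdown on that day, when 48.8% of 15417 genes were, and 6 of them (Isg15, Ifit1, Ifit3, Irf7, Usp18 and Ifih1) were at least 2-fold higher, against 14.9% of genes. None was 2-fold lower, against 7.41%. Of these 6 only Ifih1 passed the level filter. The counting intervals of Ifit1 (-0.55 to 3.22) and Irf7 (-1.89 to 7.07) included 0, and those of Isg15, Ifit3, Usp18 and Ifih1 did not. Shares of 2-fold differences, here and for the other days and steps, are over all 15417 genes. They were not matched to the low level of the members. Their normalized reads summed to 177 in the control and 339 in the knockdown on day 0, and without Ifit2 to 56.8 and 159.6. With 1 library per line on a day there is no test of a single day, and the 9 genes share those 2 libraries.

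The pattern changed from day to day. On day 1, 3 members were at least 2-fold higher (background 11.6%) and 1, Oasl2, was 2-fold lower (14.8%). Day 2 had 1 higher, Ifih1 (8.86%), and 1 lower, Ifit1 (11.6%). Day 3 had 5 higher (10.8%) and 0 lower (9.65%), and day 4 had 6 higher (10.9%) and 1 lower, Irf7 (7.83%). The median ratio of the 9 genes was highest on day 4, at 1.83.

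On day 6 the order was turned, with 1 member at least 2-fold higher, Rsad2 (background 5.95%), and Isg15, Ifit1 and Usp18 at least 2-fold lower (10.2%). Ifit1 showed the widest gap, 45 reads in the control against 3 in the knockdown, a ratio of -3.84 with a counting interval of -6.17 to -2.20. The median ratio was -0.61. Day 8 had 6 members 2-fold higher (10.7%) and 0 lower (7.53%). Day 10 had 1 higher, Ifit2 (10.5%), and 2 lower, Isg15 and Rsad2 (14.6%). Day 12 had 3 higher, Ifit1, Ifit2 and Ifit3 (8.81%), and 0 lower (14.4%), and day 14 had 3 higher, Ifit2, Ifit3 and Irf7 (10.7%), and 0 lower (13.1%).

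The tables of consecutive days show how the genes moved within each line. In the control line 3 of the 4 genes past the filter rose with day, at limma adjusted p under 0.05, and 0 fell, where 19.7% of all genes rose and 23.9% fell. Oasl2 rose by 0.16 per day on the log2 scale (adjusted p 0.00515), from 6.12 normalized reads on day 0 to a highest value of 53.3 on day 12 and 33.5 on day 14. Ifih1 rose by 0.13 per day (adjusted p 0.00389) and Ifit2 by 0.049 per day (adjusted p 0.0187, but 0.0963 without day 14). At the lower filter Isg15 and Usp18 also rose in the control, by 0.27 and 0.304 per day (limma adjusted p 0.00809 and 0.00855), which made 5 of 9 members rising where 18.8% of 15417 genes rose (16.9% of 19040 with no filter). Isg15 went from at most 0.842 normalized reads on day 0 to 17.5 on day 14, and Usp18 from 3.06 to 27.6.

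In the knockdown line 1 member rose and 0 fell, where 7.63% of all genes rose and 5.53% fell. Ifit2 rose by 0.11 per day (limma adjusted p 0.0187), from 179.8 normalized reads on day 0 to 580.3 on day 14. That call was lost without day 12 (limma adjusted p 0.0652) and without day 14 (0.0721), and the number of genes called in this line ranged from 170 without day 14 to 2966 without day 0. At the lower filter, where 6.56% of genes rose (5.22% with no filter), Irf7 rose by 0.22 per day (limma adjusted p 0.0336), with 2.92 normalized reads on day 0 and 30.7 on day 14. Ifih1 had a slope of 0.034 per day (limma adjusted p 0.411), starting from the higher level of 33.0 normalized reads on day 0 where the control had 14.3.

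The difference between the slopes was tested as the slope of the same-day ratio on day. None of the 4 genes past the filter had a rising ratio (background 7.44%) or a falling one (6.61%). The slope of the ratio was 0.067 per day for Ifit2 (limma adjusted p 0.117), -0.12 for Rsad2 (0.174), -0.054 for Ifih1 (0.199) and 0.036 for Oasl2 (0.772). Nor did any of the 9 genes pass at the lower filter, where 5.68% of genes had a rising ratio and 5.61% a falling one. The lowest limma adjusted p-values there were 0.133 for Ifit2 and 0.139 for Usp18, whose ratio had a slope of -0.21 per day.

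Single steps in the control line were steep around day 6, the day that stands apart. A rise of at least 2-fold into day 6 was found for 5 of the 9 genes in the control line, where 11.7% of 15417 genes had one, and for 1 in the knockdown line (6.24%). A fall of at least 2-fold into day 8 was found for 4 in the control line (8.48%) and 0 in the knockdown line (5.51%). With 1 library per line on each day these steps have no test, and a property of the control library of day 6 cannot be told apart from a change in the cells. From day 4 to day 6, a step of 2 days, the control values rose by 4.10 on the log2 scale for Isg15, 3.51 for Ifit1, 2.19 for Ifit3 and 1.95 for Ifih1, the steepest rise of each in that line (for Isg15 a lower bound), and all 4 then had their steepest fall to day 8 (-1.95, -1.94, -1.075 and -0.96). Usp18 also fell most to day 8, by 2.88. In the knockdown line none of these 5 genes had its steepest rise into day 6, where 1 of the 9 members and 12.7% of 15417 genes did. Such timing was common among genes in general. In the control line 20.9% of 15417 genes had their steepest rise into day 6, against 4 of the 9 members. The steepest fall came into day 8 for 21.3% of genes there, against 5 of the 9. The control table that pairs days 3 and 4 stood apart from the other tables, with a gap in the step of up to 0.91 among the members (Usp18) and 0.0060 for Ifit2. Taking that step through the knockdown tables instead left 3 of the 4 members past the filter rising in the control. The slope of Ifih1 was then 0.091 per day (limma adjusted p 0.0274). Isg15 and Usp18, under the filter, were not refitted in this way. Their steps were -1.74 and 0.22 in that table, and -2.05 and -0.69 through the knockdown tables.

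The other genes of the pathway were counted in lists written by hand. Among all 13624 genes past the filter 26.2% were higher and 26.3% lower, the background for every list count at that filter. Among nucleic acid sensors and adaptors, 6 of 16 genes past the filter were higher and 2 lower in the knockdown. Sensors of double-stranded RNA were among those higher: Tlr3 stood at a mean ratio of 1.51 ± 0.59 (SD, n = 9 days; limma adjusted p 0.000181), with ratios of 0.55 to 2.39, and Ddx58 at 1.04 ± 0.43 (limma adjusted p 0.000274), each higher on 9 of 9 days. The adaptor of Tlr3, Ticam1, was at 0.92 ± 0.20 (limma adjusted p 3.41e-05). Smaller differences were found for Eif2ak2 at 0.28 (limma adjusted p 0.0028), the adaptor Mavs at 0.26 (0.025) and Traf3, which relays its signal, at 0.25 (0.0217). The sensors of DNA Aim2, at -1.70 ± 1.95, and Tmem173 (STING, the adaptor of that pathway), at -0.80 ± 0.93, were lower (limma adjusted p 0.0323 and 0.0353). On day 6 the ratio was -1.05 for Tlr3, 0.75 for Ddx58 and -3.87 for Tmem173.

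Interferon genes themselves were not detected as different. Of 13 interferon genes in the tables none passed the filter, and 12, Ifnb1 among them, had a ratio of 0 in all 10 same-day tables, which both libraries at or under 1 normalized count give. Of these 12, Ifnb1, Ifne and Ifnk did have a ratio other than 0 between consecutive days of a line, so they were not without reads. Irf3 did not pass the test at 0.10 ± 0.19 (limma adjusted p 0.27). All 6 receptor chains that were measured passed the filter, and 5 were higher in the knockdown: Ifnar1 at 0.35 ± 0.12 (limma adjusted p 0.001), Ifnar2 at 0.55 ± 0.43 (0.00707), the interferon gamma receptor chains Ifngr1 at 0.91 and Ifngr2 at 0.49, and Il10rb at 0.76. The sixth, the interferon lambda receptor gene Il28ra, did not pass at -0.54 ± 0.81 (limma adjusted p 0.0898).

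Of the 15 genes of the JAK-STAT pathway and the interferon regulatory factors, 8 were higher (background 26.2%) and 1 lower (26.3%). Irf9 was at 0.45 ± 0.39 (limma adjusted p 0.0126), while Stat2 gave 0.0040 ± 0.21 (0.971), Jak1 0.10 (0.299), Tyk2 -0.062 (0.492) and the feedback inhibitor Socs1 0.084 (0.677). The largest of the called ratios belonged to Stat3 at 0.98 ± 0.15 and Jak2 at 0.80 ± 0.32, which serve many cytokines, and the lowest to the phosphatase Ptpn6 at -1.58 ± 0.99.

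Other interferon-stimulated genes went both ways. Among 48 measured, 22 passed the filter, and 5 were higher and 6 lower, with a median mean ratio of 0.0090 where all genes past the filter had 0.0057. The highest were the exonuclease Isg20 at 3.21 ± 1.06 (limma adjusted p 7.81e-05) and Ifi44 at 2.20 ± 1.86 (0.00799). The lowest were the membrane protein Ifitm1 at -2.34 ± 1.70 (0.00376) and the nuclear body protein Pml at -1.10 ± 0.64 (0.00133). Mx1 and Cxcl10, common readouts of an interferon response, did not pass the filter: Mx1 had a ratio of 0 on 4 of 9 days and a mean of -0.11 ± 0.95, and Cxcl10 a mean of 0.66 ± 1.79 (exact permutation p 0.305, n = 9 days) with 3.25 on day 0. Mx2, the paralog of Mx1, also lay under the filter but was higher on 9 of 9 days, at 1.78 ± 0.65 (exact permutation p 0.00391, n = 9 days; limma adjusted p 0.000204 at the lower filter), and is named after its values were seen. Ddx60, also under the filter and named after its values were seen, was lower on 9 of 9 days, at -1.41 ± 0.57. Its exact permutation p was 0.00391 (n = 9 days), and its limma adjusted p at the lower filter was 0.000314. At the lower filter 9 of 31 genes of this list were higher and 9 lower. By comparison the 4 members past the filter had a median of 0.74, and that choice of members was made with earlier results of these data known.

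Genes of the interferon gamma response and of antigen presentation were higher more often than lower, 11 against 1 of 21 past the filter. The shares among all genes were 26.2% higher and 26.3% lower. The median mean ratio of the list was 0.50. The light chain of class I molecules, B2m, was at 1.15 ± 0.62 (limma adjusted p 0.000855) and higher on 9 of 9 days, from 0.14 on day 0 to 2.16 on day 8. The class I heavy chains H2-T23 and H2-D1 were at 1.77 ± 0.99 and 1.44 ± 0.80, and the GTPase Gbp4 at -1.06 ± 1.26. NF-kB targets, which the same sensors can induce, had 0 higher and 3 lower of 12, the lowest being Ccl2 at -0.61 ± 0.61 and Icam1 at -0.41 ± 0.41.

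**Figure D3:**
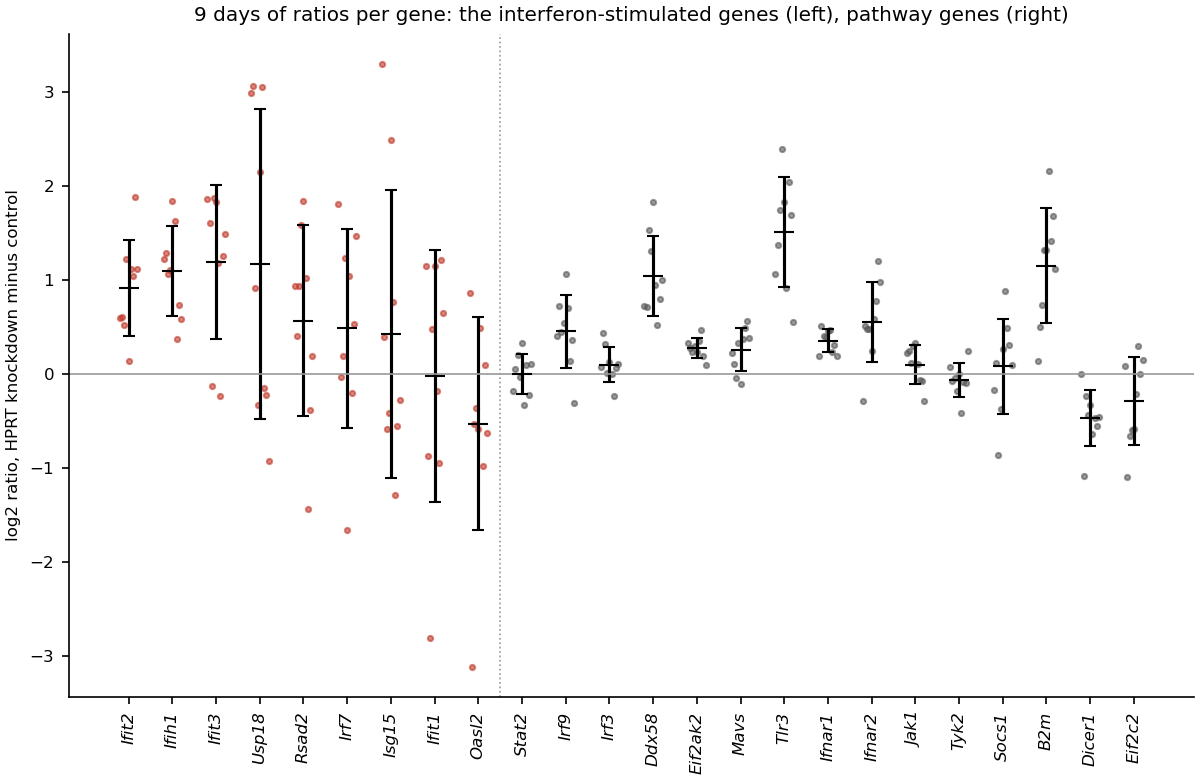
Same-day log2 ratios, HPRT knockdown minus control (y axis), on the 9 days tested for the 9 interferon-stimulated genes (red points) and for genes of the pathway (grey points), with the mean (dash) and SD (bars). Tlr3, Ddx58 and B2m stand above 0 on each day, as Ifit2 and Ifih1 do, while Stat2, Jak1 and Tyk2 stay near 0.

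Genes that process small RNA and hairpins were examined as the route that both hairpins share. Of 14 past the filter 2 were higher (background 26.2%) and 7 lower (26.3%) in the knockdown. Dicer1, which cuts hairpins, was at -0.47 ± 0.30 (limma adjusted p 0.00367), its partner Tarbp2 at -0.92 ± 0.33 and Drosha at -0.85 ± 0.33. The Argonaute gene Eif2c2 did not pass at -0.29 ± 0.47 (limma adjusted p 0.124), and its relatives Eif2c3 and Eif2c4 were higher at 0.79 and 0.40.

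Markers of cell types were compared in the same way. In bulk RNA, fewer cells of a type and less RNA per cell cannot be told apart. The libraries are labelled as spherical neural masses in neuronal differentiation, and 10 of 11 neuron markers passed the filter, of which 7 were lower in the knockdown and 0 higher (median mean ratio -1.54). All 12 pluripotency markers also passed, with 11 lower and 1 higher (median -2.71), and astrocyte and oligodendrocyte markers had 9 of 14 higher and 0 lower (median 1.75). Macrophages and microglia respond strongly to interferon, and of their 12 markers 2, Cd68 and Laptm5, passed the filter, with Laptm5 lower at -2.04, while Cx3cr1 and Tyrobp had a ratio of 0 in every table. Fibroblast markers, which feeder cells would carry, had 0 of 14 higher and 3 lower (median -0.12), with a median of 0.15 on day 0. Endothelial markers had 1 higher and 3 lower of 7, and endoderm markers 1 higher and 1 lower of 5, with medians on day 0 of 1.3 and 1.6. The tables define no summed level for these lists. The part of these differences in the ratios of the interferon-stimulated genes was not tested.

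**Figure D4:**
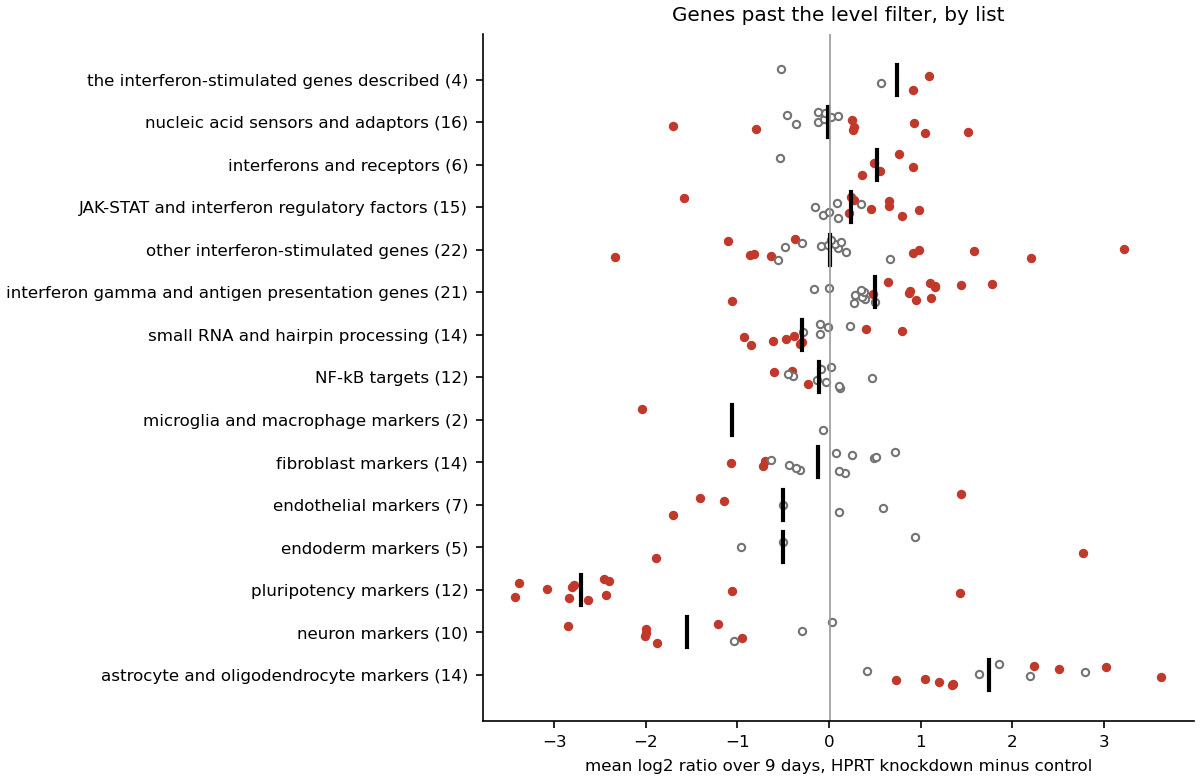
Mean log2 ratio over the 9 days tested, HPRT knockdown minus control (x axis), of each gene past the level filter, by list (rows, with the number of genes past the filter); filled red points passed the limma test, open points did not, black bars are list medians and the grey line is the median of all genes. The 22 other interferon-stimulated genes spread to both sides of 0, while 5 of 6 receptor chains lie to the right.

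The genes whose ratios over the 10 days were most like the mean ratio of Ifit2, Rsad2, Ifih1 and Oasl2 were Kcnj8 (Pearson r = 0.924), Klhl34 (0.899), Rabgap1 (0.898), Zfp523 (0.889) and Grn (0.88), out of 13620 genes compared, where the median r was 0.031. All points come from the same 20 libraries, and the values are a description. The mean ratios of these genes ranged from -0.71 for Klhl34 to 0.51 for Kcnj8. No interferon-stimulated gene of the lists was among them.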

How the data were processed

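The authors sequenced 20 libraries, aligned reads to mm9 with ELAND in CASAVA 1.8.2 and counted genes in Avadis NGS. The deposited values are log2 DESeq-normalized counts, made by the authors, and in the files they are centred within each table of 2 libraries; 10 tables pair the lines on a day, and 9 per line pair consecutive days. That each table was normalized on its own, that counts at or under 1 enter as 0 (which understates ratios of low genes) and that partial reads count as 49ths was inferred from the values and is not stated in the sources; recovered reads, levels and counting intervals rest on it.

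From these a log2 ratio per table was taken. Level filters came from the rounding step of the single-precision values that holds both values of a pair, taken as the median over the tables. This level is approximate. A related step, that of the higher value in each same-day table, was compared with recovered reads of the larger library. It put 73 of 90 pairs of libraries of the members on the same side of 16 normalized reads. That check did not cover the median that set the filters. Reads were recovered by solving 27 tables jointly for whole reads or 49ths of a read; among genes under 100 reads, 54.4% of values were whole reads and 99.4% whole 49ths. The control table of days 3 and 4 was left out there. limma 3.58.1 in R 4.3.3 (lmFit, eBayes, Benjamini-Hochberg) tested the 9 same-day ratios and slopes on day, without day 6, on genes with a log2 count of typically 4 or more; single genes had a two-sided exact sign-flip permutation test. Fits were tested on simulated data. Alternatives changed the level filter, the days, the pairing, the scaling and the test, one at a time. Libraries of a day form a pair. Named genes were the 9 members, fixed pathway genes, up to 4 called extremes per list and the 5 most correlated genes; 1 pathway gene of this rule is not reported here. The members and lists were chosen with earlier results of these data known. Strand use in counting and the lane and read total of each library are not given in the sources used here.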

Additional observations from a re-analysis of the deposited data

Results flagged for a closer look

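For each gene the 10 days were searched for a value standing apart from the rest, in the ratio and in the normalized reads of each line, by the gap to its nearest neighbor over the whole range. Of 27 such groups 4 were flagged, where chance flags about 1 in 20; the days of a course are not replicates, and a steady trend or a step can set a value apart. Isg15 had 14.5 normalized reads in the knockdown library of day 14, next to 8.20 in the nearest other library. Irf7 had 30.7 in the same library, next to 9.21. Ifit1 had 43.8 in the control library of day 6, next to 23.1. The ratio of Oasl2 on day 1 was -3.11, next to -0.98 on day 10. No member's ratio had a called slope, so no difference between the time courses of the lines was flagged.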

How the results depend on the processing

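Ifit2 and Ifih1 were called higher in the knockdown in every fit that tested them, including the fit that keeps day 6. Only Ifit2 was left to test at a typical log2 count of at least 8, so 1 member was called there. Leaving out 1 day gave 6261 to 7272 genes differing between the lines (7147 with all 9 days) and 2 to 3 members called higher, the third being Rsad2 without day 10. Without the replicate block, that is with libraries of a day not paired, 5705 genes and 2 members were called. A typical log2 count of at least 8 left 4818 genes differing. The mean ratio of Ifit1, near 0, ran from -0.17 to 0.33 over the fits that leave out 1 day, turned positive without days 1, 2, 8 or 10 (0.089, 0.33, 0.0033 and 0.099) and from recovered reads (0.0026), and the ratio slope of Oasl2 was -0.039 without day 1. Genes with a slope of the ratio numbered 1914, 1068 with day 6 and 608 (without day 12) to 1658 over the fits that leave out 1 day. On log2(day + 1) slopes were called for 3932 genes in the control line (5942 on day) and 129 in the knockdown line (1793 on day), and 0 members rose in the knockdown line. Without a filter, and with a log2 count of at least 2 (an alternative chosen after seeing the data), 5 members rose in the control line and 2 in the knockdown line, where 18.8% and 6.56% of all genes rose at that count. Leaving out 1 day, in these courses also chosen after seeing the data, gave 170 (without day 14) to 2966 (without day 0) genes and 0 to 1 rising members in the knockdown line, and 2 to 3 rising members in the control line. The rise of Ifit2 in the knockdown line was lost without day 12 (limma adjusted p 0.0652) or day 14 (0.0721), and in the control line without day 14 (0.0963). The causes were not tested. Few reads limit Isg15, Irf7, Ifit1 and Usp18 most.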
